A study of Mus musculus with 5 samples.

Results

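The genes described here are 10 renal transporters of glucose, related sugars, lactate and other small carboxylates, taken by gene symbol from a list of 35478 genes with a count in each kidney library. They comprise the sodium-glucose cotransporters Slc5a1 (SGLT1) and Slc5a2 (SGLT2), the facilitative glucose carriers Slc2a1 (GLUT1) and Slc2a2 (GLUT2), the mannose and fructose cotransporter Slc5a10 (SGLT5), the sodium-coupled monocarboxylate transporters Slc5a8 (SMCT1) and Slc5a12 (SMCT2), the proton-coupled monocarboxylate transporters Slc16a1 (MCT1) and Slc16a3 (MCT4), and the dicarboxylate transporter Slc13a3 (NaDC3). All 10 passed the filter on low counts. Sequencing covered kidney RNA of 2 Prdm16fl/fl mice (mice 1 and 3) and 3 Ksp-Cre/Prdm16fl/fl mice (mice 1, 2 and 3), with 1 library for each mouse. All were male C57BL/6J;129 mice of 7 to 8 weeks with both Prdm16 alleles floxed, and all had unilateral ischemia-reperfusion injury (UIRI): the left renal pedicle was clamped for 35 minutes at 38.5°C, the right kidney was taken out on day 10, and the mice were killed 24 hours later, on day 11. Ksp-Cre drives Cre recombinase from the promoter of kidney-specific cadherin (Cdh16), a gene of tubular epithelium, and the controls were littermates without Cre. The labels name kidney and the methods name its cortex. An uninjured group is not analysed here, so each difference is one between genotypes after injury.

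In the kidney, filtered glucose is taken up across the apical membrane of the proximal tubule, mostly by the high-capacity Slc5a2 in the early convoluted part, and the remainder by the high-affinity Slc5a1 in the later straight part. Glucose leaves these cells across the basolateral membrane through facilitative carriers, chiefly Slc2a2 in the early and Slc2a1 in the later segments. Filtered lactate and other monocarboxylates are recovered by Slc5a12 in the early and Slc5a8 in the later proximal tubule. Slc16a1 and Slc16a3 carry lactate together with protons, Slc16a3 being best known for lactate export from glycolytic cells. Slc13a3 takes up succinate, α-ketoglutarate and related dicarboxylates at the basolateral membrane.

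RefSeq promoter sequences (GRCm38.p6, 250 bases before to 50 bases after a start site) were at hand for 8 of the 10 genes, and Slc5a2 and Slc5a12 had no entry. The 250 bases before the start are shown for the pair of transporters with the smallest p-values between the genotypes, Slc5a8 and Slc13a3, and for Slc16a1, the transporter with the largest difference in the other direction. They are given in the direction of transcription, from chr10:88885742-88885991 (plus strand), chr2:165473198-165473447 (minus strand) and chr3:104638414-104638663 (plus strand) of GRCm38.p6. Capitals mark the letters CACGTG, the E-box.
Slc5a8: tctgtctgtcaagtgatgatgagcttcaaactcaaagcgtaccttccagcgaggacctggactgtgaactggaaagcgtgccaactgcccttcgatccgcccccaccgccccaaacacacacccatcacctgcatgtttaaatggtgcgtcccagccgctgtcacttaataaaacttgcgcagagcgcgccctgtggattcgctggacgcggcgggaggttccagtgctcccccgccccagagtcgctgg
Slc13a3: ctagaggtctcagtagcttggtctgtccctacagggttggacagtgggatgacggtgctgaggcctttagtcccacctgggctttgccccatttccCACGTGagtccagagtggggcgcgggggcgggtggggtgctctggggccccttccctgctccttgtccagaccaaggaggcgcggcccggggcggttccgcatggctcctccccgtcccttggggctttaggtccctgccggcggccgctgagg
Slc16a1: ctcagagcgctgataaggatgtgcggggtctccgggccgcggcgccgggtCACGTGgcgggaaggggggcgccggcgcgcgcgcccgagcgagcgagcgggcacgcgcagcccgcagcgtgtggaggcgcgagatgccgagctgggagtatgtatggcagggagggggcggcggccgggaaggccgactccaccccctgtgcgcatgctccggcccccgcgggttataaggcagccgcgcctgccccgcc
CACGTG stood in the promoters of Slc13a3, Slc16a1 and Slc5a1, and in 7.15% of all promoters. The letters ACGTG within it, the core of the hypoxia response element, were found on either strand in 5 of the 8 genes (those 3, Slc2a1 and Slc16a3). They stood in 19.6% of the 32851 promoters of the table, and a CACGTG holds ACGTG on both strands. GTTAAT, the half-site of the HNF1 factors, was found in 1 of the 8 genes, at a second start site of Slc5a10, and in 7.10% of all promoters. Slc5a8 held none of these letters in this window. The 300 bases of the Slc16a1 promoter had a GC content of 73.7% and 42 CpG, those of Slc5a8 60.7% and 20, and those of Slc2a2 48.0% and 2. These matches are of letters only.

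Total counts lay between 14939040 and 16425161 per library. Ksp-Cre/Prdm16fl/fl mouse 3 stood apart from the other 4 libraries, with a chi-square per degree of freedom of 62.7 to 111 against each of them, where the other Ksp-Cre/Prdm16fl/fl mice differed from each other by 9.89, the Prdm16fl/fl mice by 13.2, and these pairs from one another by 58.8 to 84.5. Results are therefore also given without it. The edgeR quasi-likelihood test over 16394 genes called 143 genes lower and 17 higher in Ksp-Cre/Prdm16fl/fl kidneys (Benjamini-Hochberg adjusted p under 0.05), and the log2 fold changes of all genes tested had a median of 0.038. Without any 1 of the other 4 mice it called 0 genes, with 1330 to 2514 at an unadjusted p under 0.05. The floxed gene itself stood at 25.3 and 20.02 CPM (counts per 1000000 after TMM scaling) in Prdm16fl/fl kidneys and at 17.1, 17.0 and 17.99 CPM in Ksp-Cre/Prdm16fl/fl kidneys (log2 fold change -0.38, SE 0.15, edgeR adjusted p = 0.259), a count over the whole gene that does not check the removal of an exon. Cdh16, whose promoter drives Cre, was at 980 and 944 CPM and at 868, 890 and 575 CPM.

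Of the 10 transporters, 5 were lower in all Ksp-Cre/Prdm16fl/fl libraries than in both Prdm16fl/fl libraries (Slc5a2, Slc2a2, Slc5a8, Slc5a12 and Slc13a3), 1 was higher without overlap (Slc16a1), and 4 overlapped (Slc5a1, Slc2a1, Slc5a10 and Slc16a3). Of all genes tested, 21.3% were lower and 20.3% higher without overlap. The 1 higher became 4 without Prdm16fl/fl mouse 3, where 27.4% of all genes were higher without overlap, and 2 without Ksp-Cre/Prdm16fl/fl mouse 2, where 23.9% were. At an edgeR adjusted p under 0.05, 0 of the 10 were called lower (0.872% of all genes tested) and 0 higher (0.104%). At an unadjusted p under 0.05, 5 were lower and 0 higher. Of the 16394 genes tested, 11.2% were lower and 1253 genes were higher at that level. DESeq2, the second tool run, called 4 of the 10 lower (Slc5a2, Slc5a8, Slc5a12 and Slc13a3) against 5.45% of the genes it tested, and 0 higher against 1.94%. Without a filter on low counts, edgeR called 2 lower (Slc5a8 and Slc13a3), against 1.59%. Without Ksp-Cre/Prdm16fl/fl mouse 3, edgeR called 5 of the 10 lower, against 11.0% of all genes tested, and 1 higher, Slc16a1, against 7.82%. When Ksp-Cre/Prdm16fl/fl mouse 1 or mouse 2 was left out instead, it called 0 of the 10 and 0 of all genes tested. The median log2 fold change of the 10 was -0.30. In these whole-tissue libraries, fewer cells of a type and less RNA per cell cannot be told apart.

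**Figure D1:**
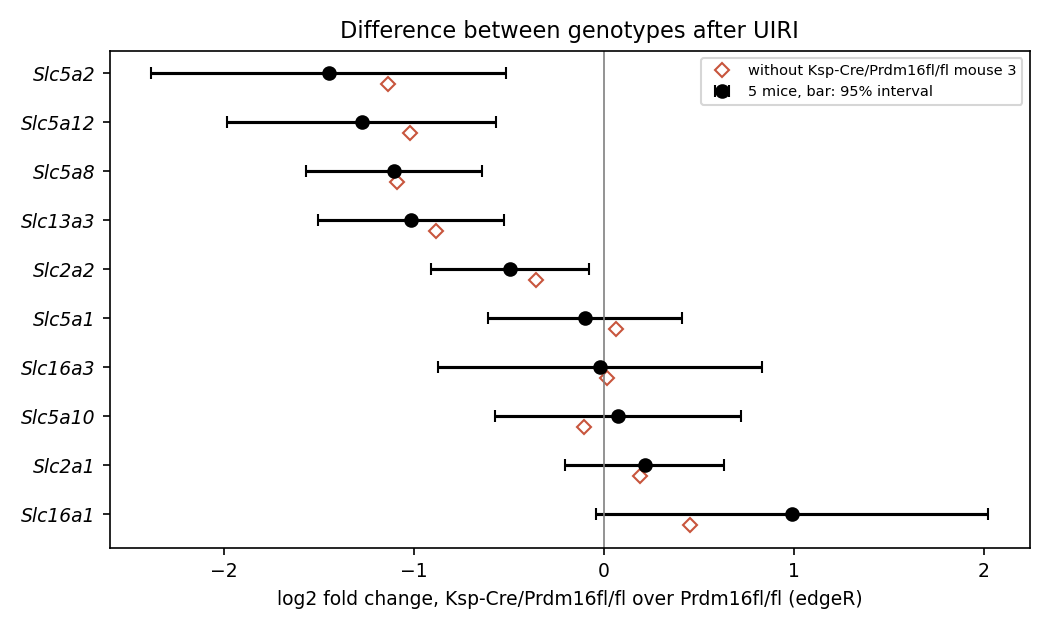
The log2 fold change of each transporter gene, Ksp-Cre/Prdm16fl/fl over Prdm16fl/fl, from edgeR on 5 mice (black, with 95% intervals) and without Ksp-Cre/Prdm16fl/fl mouse 3 (open diamonds). The intervals of Slc5a2, Slc5a12, Slc5a8, Slc13a3 and Slc2a2 lie below 0, those of the other 5 genes include 0, and Slc16a1 moves from 0.99 to 0.46 without mouse 3.

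Of the sodium-glucose cotransporters, Slc5a2 was 2.73-fold lower in Ksp-Cre/Prdm16fl/fl kidneys while Slc5a1 overlapped between the genotypes. Slc5a2 (chromosome 7, 127864855 to 127871602, plus strand) was at 363 and 281 CPM in Prdm16fl/fl kidneys 1 and 3 and at 162, 130 and 61.8 CPM in Ksp-Cre/Prdm16fl/fl kidneys 1, 2 and 3. Both controls lay above the highest Ksp-Cre/Prdm16fl/fl library, and mouse 3 was the lowest of the 5. The log2 fold change was -1.45 (SE 0.38, 95% interval -2.38 to -0.52, edgeR adjusted p = 0.127). DESeq2 gave an adjusted p of 0.0049, and edgeR without Ksp-Cre/Prdm16fl/fl mouse 3 gave -1.14 with an adjusted p of 0.0026. Leaving out Ksp-Cre/Prdm16fl/fl mouse 1 or 2 gave -1.74 and -1.52 (edgeR adjusted p = 0.157 and 0.271). Slc5a2 shares 597 bases of exon with Rusf1 on the other strand, and the use of strand in counting is not known. Rusf1 had 347 to 441 counts per library and Slc5a2 927 to 5388, and the part of shared reads in either was not tested.

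Slc5a1 (chromosome 5, 33261563 to 33320043, plus strand), the high-affinity carrier, was at 108 and 119 CPM in Prdm16fl/fl kidneys and at 105, 132 and 81.0 CPM in Ksp-Cre/Prdm16fl/fl kidneys. The Ksp-Cre/Prdm16fl/fl libraries lay on both sides of the controls. Its log2 fold change was -0.10 (SE 0.21, 95% interval -0.61 to 0.41, edgeR adjusted p = 0.834), and its sign turned when mouse 3 was left out (0.064) or when libraries were scaled by their totals alone (0.024).

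Within a library and per length, Slc5a2 exceeded Slc5a1 in every mouse, by less in the Ksp-Cre/Prdm16fl/fl mice. The difference of log2 FPKM (fragments per kilobase, scaled to the library and comparable between genes) was 2.54 and 2.03 in Prdm16fl/fl kidneys and 1.42, 0.78 and 0.40 in Ksp-Cre/Prdm16fl/fl kidneys, with no overlap and a mean difference between genotypes of -1.42 (exact permutation test, two-sided, p = 0.2, adjusted over 4 such pairs 0.4). With 2 mice against 3, this test cannot go below 0.2. Slc5a1 thus made up 14.6% and 19.7% of the summed FPKM of both cotransporters in the controls and 27.3%, 36.9% and 43.1% in Ksp-Cre/Prdm16fl/fl kidneys. The sum itself was 183 and 144 FPKM in the controls and 105, 95.4 and 46.4 FPKM in Ksp-Cre/Prdm16fl/fl kidneys.

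**Figure D2:**
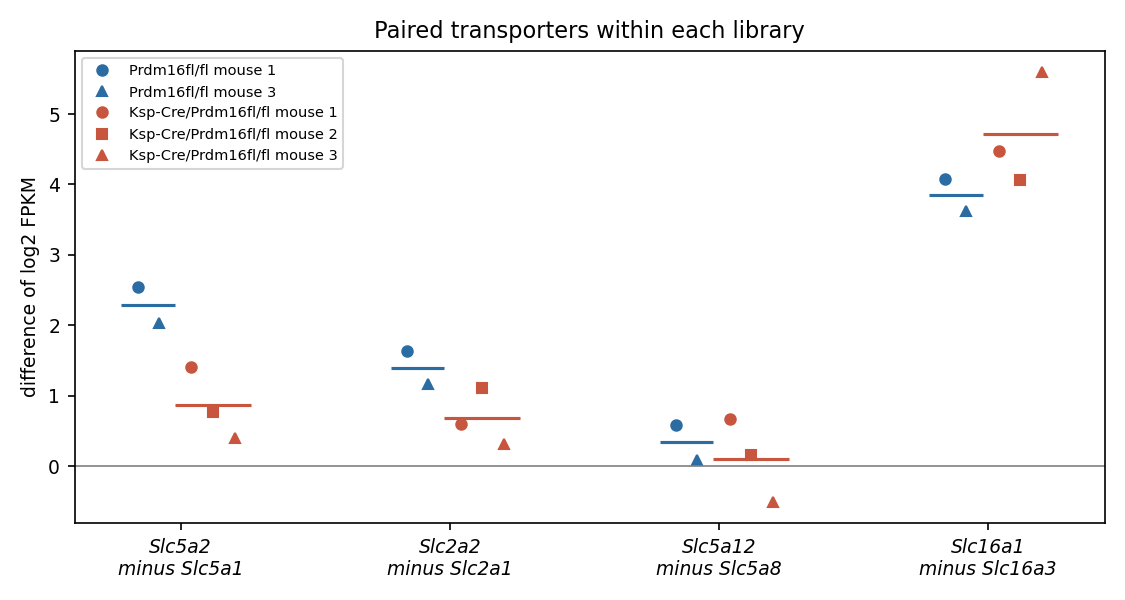
The difference of log2 FPKM between paired transporters within each library, with a line at the mean of each genotype. For Slc5a2 minus Slc5a1 the controls (2.03 and 2.54) lie above all Ksp-Cre/Prdm16fl/fl mice (0.40 to 1.42), as they do less widely for Slc2a2 minus Slc2a1. For the other 2 pairs the genotypes overlap, for Slc16a1 minus Slc16a3 only by 4.071 in a control against 4.068.

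Slc5a10 (chromosome 11, 61563608 to 61611641, minus strand), the apical mannose and fructose cotransporter of the Slc5 family, overlapped between the genotypes. Its values were 177 and 291 CPM in Prdm16fl/fl kidneys and 206, 229 and 305 CPM in Ksp-Cre/Prdm16fl/fl kidneys. The controls differed from each other by more than the genotypes did on average (log2 fold change 0.075, SE 0.27, 95% interval -0.57 to 0.72, edgeR adjusted p = 0.905), and the sign turned without Prdm16fl/fl mouse 1 (-0.24) or without Ksp-Cre/Prdm16fl/fl mouse 3 (-0.10). It shares 393 bases of exon with Fam83g on the other strand, which had 171 to 324 counts per library, against 2627 to 4577 for Slc5a10, and the part of shared reads was not tested.

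Of the facilitative carriers, Slc2a2 was 1.41-fold lower and Slc2a1 overlapped between the genotypes. Slc2a2 (chromosome 3, 28752052 to 28782510, plus strand) was at 151 and 135 CPM in Prdm16fl/fl kidneys and at 108, 114 and 81.9 CPM in Ksp-Cre/Prdm16fl/fl kidneys. All 3 Ksp-Cre/Prdm16fl/fl libraries lay below the lower control. Its log2 fold change of -0.49 (SE 0.17, 95% interval -0.91 to -0.079) missed the threshold (edgeR adjusted p = 0.203), and passed it without Ksp-Cre/Prdm16fl/fl mouse 3 at a smaller size (-0.36, edgeR adjusted p = 0.0451). The threshold was also missed without Ksp-Cre/Prdm16fl/fl mouse 1 (-0.54, edgeR adjusted p = 0.306) or mouse 2 (-0.59, 0.292).

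Slc2a1 (chromosome 4, 118965942 to 118994527, plus strand), the widely expressed glucose carrier, was at 50.8 and 62.5 CPM in Prdm16fl/fl kidneys and at 73.9, 54.8 and 68.6 CPM in Ksp-Cre/Prdm16fl/fl kidneys. The second of these lay between the controls. Its log2 fold change was 0.22 (SE 0.17, 95% interval -0.20 to 0.63, edgeR adjusted p = 0.536). Within a library, Slc2a2 exceeded Slc2a1 by 1.63 and 1.17 log2 FPKM in the controls and by 0.61, 1.12 and 0.32 in Ksp-Cre/Prdm16fl/fl kidneys, a difference of -0.72 between genotypes (exact permutation test, two-sided, p = 0.2, adjusted over 4 pairs 0.4).

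Both sodium-coupled monocarboxylate transporters were lower in Ksp-Cre/Prdm16fl/fl kidneys, Slc5a8 by 2.15-fold and Slc5a12 by 2.42-fold. Slc5a8 (chromosome 10, 88721854 to 88765377, plus strand), the high-affinity form, was at 235 and 306 CPM in Prdm16fl/fl kidneys and at 106, 148 and 123 CPM in Ksp-Cre/Prdm16fl/fl kidneys. The genotypes were well apart, and mouse 3 lay between the other Ksp-Cre/Prdm16fl/fl mice. Slc5a8 had the smallest p of the 10 genes, with a log2 fold change of -1.10 (SE 0.19, 95% interval -1.57 to -0.64, edgeR unadjusted p = 0.0011, adjusted p = 0.0564). Its adjusted p was 7.1e-05 with DESeq2 and 0.0048 with edgeR without mouse 3, where the log2 fold change was -1.09. Leaving out Ksp-Cre/Prdm16fl/fl mouse 1 or 2 gave -0.99 and -1.24 (edgeR adjusted p = 0.151 and 0.145).

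Slc5a12 (chromosome 2, 110427644 to 110479690, plus strand), the low-affinity form, was at 352 and 324 CPM in Prdm16fl/fl kidneys and at 167, 165 and 86.5 CPM in Ksp-Cre/Prdm16fl/fl kidneys. Mice 1 and 2 were nearly level and mouse 3 was lowest. The log2 fold change was -1.28 (SE 0.29, 95% interval -1.98 to -0.57, edgeR adjusted p = 0.0972), with an adjusted p of 0.0015 by DESeq2. Without Ksp-Cre/Prdm16fl/fl mouse 3 it was -1.02 (edgeR adjusted p = 0.00085), and without mouse 1 or 2 of that genotype -1.42 and -1.41 (0.168 and 0.200).

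The balance of the pair did not separate the genotypes. Slc5a12 minus Slc5a8 within a library was 0.59 and 0.094 log2 FPKM in the controls and 0.67, 0.17 and -0.50 in Ksp-Cre/Prdm16fl/fl kidneys, so that only in mouse 3 was Slc5a8 the higher of the pair (exact permutation test, two-sided, p = 1.0). Their summed level was 108 and 111 FPKM in the controls and 55.1, 62.0 and 38.2 FPKM in Ksp-Cre/Prdm16fl/fl kidneys.

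Slc16a1, the ubiquitous lactate and proton cotransporter, was the only one of the 10 genes to lie above both controls in every Ksp-Cre/Prdm16fl/fl library. Slc16a1 (chromosome 3, 104545980 to 104565778, plus strand) was at 39.6 and 49.1 CPM in Prdm16fl/fl kidneys and at 58.0, 63.3 and 144 CPM in Ksp-Cre/Prdm16fl/fl kidneys. Mouse 3 had a far higher level than the other Ksp-Cre/Prdm16fl/fl mice. The log2 fold change was 0.99 (SE 0.42, 95% interval -0.039 to 2.02, edgeR adjusted p = 0.281, DESeq2 adjusted p = 0.133). Without mouse 3 it was 0.46, with a smaller standard error (0.12) and an edgeR adjusted p of 0.0336. Leaving out Ksp-Cre/Prdm16fl/fl mouse 1 or 2 gave 1.22 and 1.18 (edgeR adjusted p = 0.260 and 0.325).

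Slc16a3 (chromosome 11, 120839310 to 120849826, plus strand), the carrier of glycolytic cells, was barely present, with 29 to 53 counts per library. It was at 1.96 and 3.30 CPM in Prdm16fl/fl kidneys and at 2.16, 3.13 and 2.47 CPM in Ksp-Cre/Prdm16fl/fl kidneys. All 3 of the latter lay between the controls (log2 fold change -0.022, SE 0.35, 95% interval -0.88 to 0.83, edgeR adjusted p = 0.979). It shares 377 bases of exon with Csnk1d on the other strand, which had 1975 to 3203 counts, so that part of the counts of Slc16a3 could belong to Csnk1d. Slc16a1 exceeded Slc16a3 by 4.07 and 3.62 log2 FPKM in the controls and by 4.48, 4.07 and 5.59 in Ksp-Cre/Prdm16fl/fl kidneys (exact permutation test, two-sided, p = 0.4, adjusted over 4 pairs 0.533). The overlap rested on 4.071 in Prdm16fl/fl mouse 1 against 4.068 in Ksp-Cre/Prdm16fl/fl mouse 2. With 0.1 or 1 added to each FPKM, the same test gave its smallest p of 0.2.

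Slc13a3 (chromosome 2, 165247215 to 165315117, minus strand), the dicarboxylate transporter, was the most abundant of the 10 genes in Prdm16fl/fl kidneys and 2.02-fold lower in Ksp-Cre/Prdm16fl/fl kidneys. It was at 630 and 656 CPM in Prdm16fl/fl kidneys and at 301, 395 and 258 CPM in Ksp-Cre/Prdm16fl/fl kidneys. The controls were almost level, and the highest Ksp-Cre/Prdm16fl/fl library was well below them. The log2 fold change was -1.01 (SE 0.20, 95% interval -1.503 to -0.53, edgeR adjusted p = 0.0726). The DESeq2 adjusted p was 0.00036, and edgeR without mouse 3 gave -0.88 with an adjusted p of 0.0044. Leaving out Ksp-Cre/Prdm16fl/fl mouse 1 or 2 gave -0.97 and -1.20 (edgeR adjusted p = 0.191 and 0.145).

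Per length, the order of levels in the controls was Slc13a3 (190 ± 0.41 FPKM, SD, n = 2), Slc5a2 (136 ± 28.8), Slc5a10 (88.5 ± 27.8), Slc5a12 (60.9 ± 5.39), Slc2a2 (53.0 ± 5.93), Slc5a8 (48.2 ± 7.42), Slc5a1 (27.5 ± 1.02), Slc2a1 (20.1 ± 2.32), Slc16a1 (9.53 ± 1.14) and Slc16a3 (0.68 ± 0.23). The ranges of the mean ± 1 SD overlapped between each pair of neighbours from Slc5a2 to Slc5a8, and not between the other neighbours. In Ksp-Cre/Prdm16fl/fl mice Slc13a3 (102 ± 25.6 FPKM, SD, n = 3) and Slc5a10 (101 ± 15.5) stood level at the top. Below them Slc5a2 (54.4 ± 25.5), Slc2a2 (40.9 ± 8.67), Slc5a1 (27.9 ± 7.62), Slc5a12 (27.5 ± 10.1), Slc2a1 (25.3 ± 4.06), Slc5a8 (24.3 ± 4.28) and Slc16a1 (20.2 ± 9.77) each overlapped the next in the range of the mean ± 1 SD. Slc16a3 (0.73 ± 0.15) was again last and apart. In Ksp-Cre/Prdm16fl/fl mouse 3, Slc5a10 was the highest of the 10 at 118 FPKM, Slc16a1 ranked 3 at 31.4 FPKM, and Slc5a2 ranked 5 at 26.4 FPKM.

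**Figure D3:**
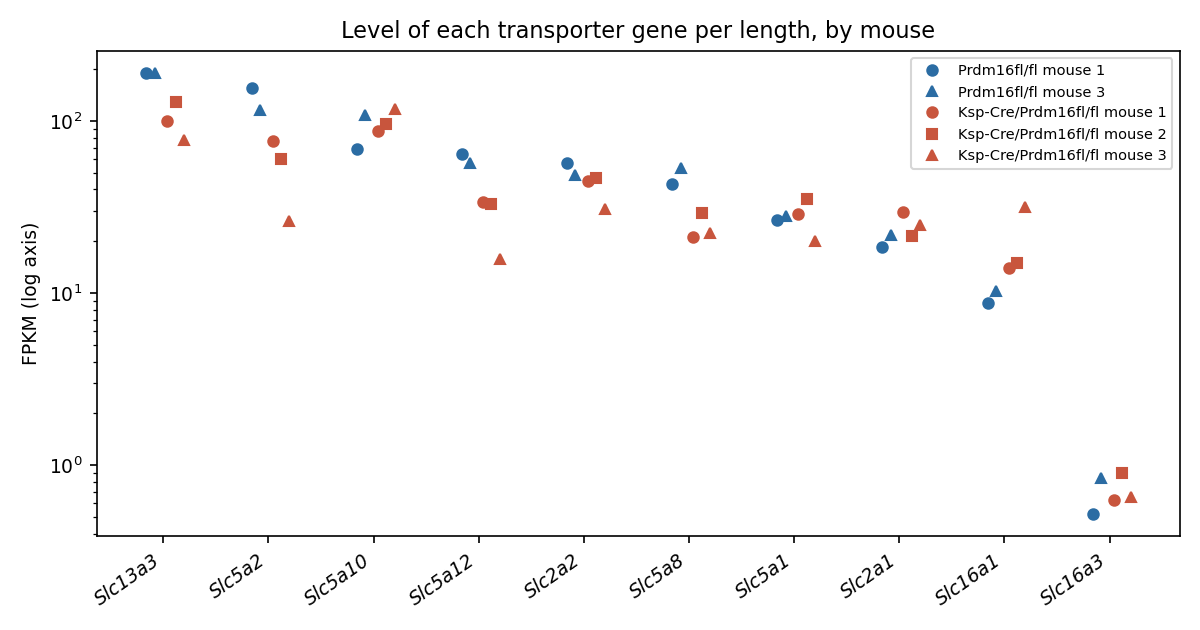
FPKM of each transporter gene on a log axis, by mouse, ordered by the mean of the Prdm16fl/fl mice (blue), with Ksp-Cre/Prdm16fl/fl mice in red. The controls run from 190 FPKM for Slc13a3 to 0.52 FPKM for Slc16a3, and mouse 3 of the Ksp-Cre/Prdm16fl/fl group is lowest for Slc5a2 (26.4) and highest for Slc16a1 (31.4).

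Markers of the proximal tubule, where most of these transporters are expressed, were also lower in Ksp-Cre/Prdm16fl/fl kidneys. Of 10 proximal tubule markers, 2 were called lower (Miox and Acsm2), 9 were lower without overlap, and their median log2 fold change was -1.19. For this and each list below, 21.3% of all genes tested were lower and 20.3% higher without overlap. The shares called were 0.872% and 0.104%. Their summed level was 11615 to 11900 CPM in the controls and 3636 to 5678 CPM in Ksp-Cre/Prdm16fl/fl kidneys, and none was at 0. Of 8 markers of the convoluted part (S1 and S2), 1 was called lower (Slc22a8) with a median of -0.98, and of 8 markers of the straight part (S3), 2 were called lower (Slc22a7 and Acy3) with a median of -2.66.

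Each transporter was therefore set against the median log2 CPM of the 10 proximal tubule markers in the same library. This median itself differed by -1.38 between the genotypes, so a transporter without a difference in CPM stands higher on this scale. Slc5a2, Slc5a12 and Slc5a8 overlapped between the genotypes on this scale, with mean differences of -0.17, 0.039 and 0.27 (exact permutation test, two-sided, p = 1.0, 1.0 and 0.4). Slc13a3 (0.34) and Slc2a2 (0.87) stood higher against the markers in all Ksp-Cre/Prdm16fl/fl libraries. Slc2a2 minus the marker median was -2.60 and -2.69 in the controls and -1.74, -1.82 and -1.77 in Ksp-Cre/Prdm16fl/fl kidneys, a narrow spread in both. So did Slc5a1 (1.25), Slc16a3 (1.38), Slc5a10 (1.47), Slc2a1 (1.59) and Slc16a1 (2.25), the 7 genes each at the smallest p of 0.2 (exact permutation test, two-sided, adjusted over the 10 genes 0.286). Against the S1 and S2 markers Slc13a3 no longer separated the genotypes (0.53, exact permutation test, two-sided, p = 0.6), with mouse 3 below both controls. The other 6 of the 7 still did, while Slc5a2 (0.021), Slc5a12 (0.23) and Slc5a8 (0.46) overlapped there too. Against the S3 markers, all 10 transporters stood higher on average, by 1.66 (Slc5a2) to 4.08 (Slc16a1). The median levels of the S1 and S2 markers and of the S3 markers themselves differed by -1.57 and -3.20 between the genotypes. These shifts, and the -1.38 of the 10 markers, are changes of a median level. The median log2 fold changes of the same markers were smaller in size (-0.98, -2.66 and -1.19). Slc5a2 (-1.45), Slc5a12 (-1.28) and Slc5a8 (-1.10) all had log2 fold changes below -0.98. Their standing against the S1 and S2 markers thus depends on the reference taken. Whether the number of proximal tubule cells had a part in the lower levels was not tested.

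**Figure D4:**
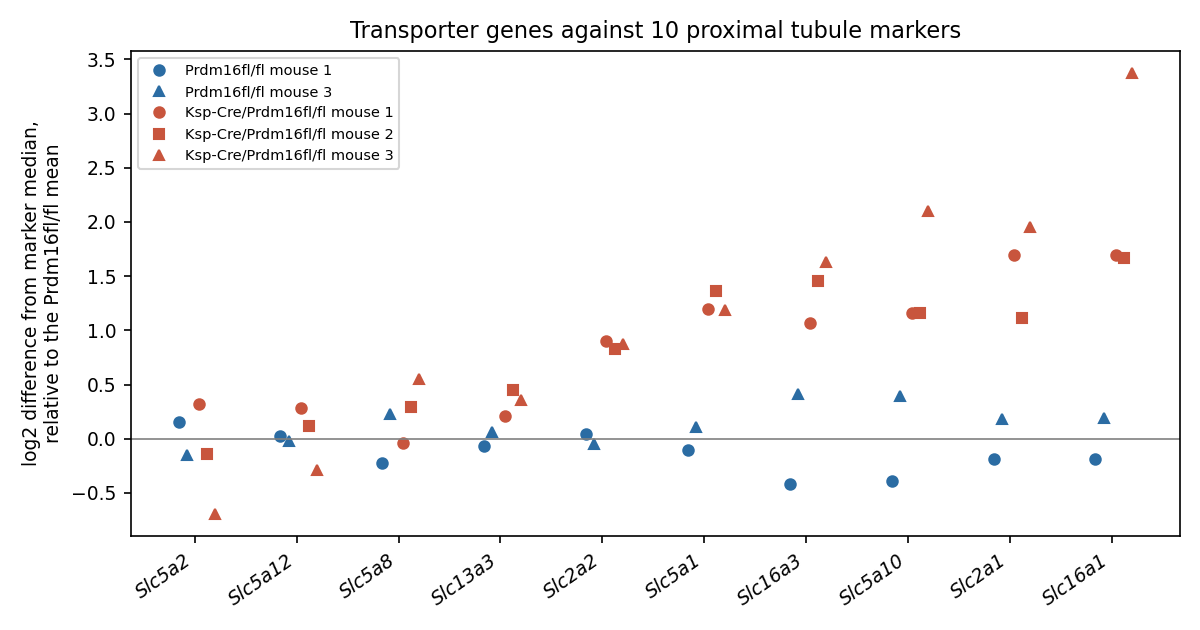
The log2 CPM of each transporter minus the median log2 CPM of 10 proximal tubule markers in the same library, relative to the mean of the Prdm16fl/fl mice, ordered by the difference between genotypes. Slc5a2, Slc5a12 and Slc5a8 overlap between genotypes, and the other 7 genes lie higher in all 3 Ksp-Cre/Prdm16fl/fl mice, Slc16a1 by 2.25 on average. The marker median itself differs by -1.38 between genotypes.

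Tubular injury markers moved the other way: 7 of 8 were higher without overlap, 0 were called, and their median log2 fold change was 1.14. Their sum was 13521 to 14637 CPM in the controls and 29178 to 36014 CPM in Ksp-Cre/Prdm16fl/fl kidneys, nearly all of it from 1 gene, Spp1 (osteopontin), at 12277 to 13442 and 27016 to 33774 CPM. The 5 erythroid markers summed to 6.67 to 10.8 CPM in the controls and 40.5 to 151 CPM in Ksp-Cre/Prdm16fl/fl kidneys, all 5 higher without overlap, 0 called and none at 0. Of 5 macrophage markers 0 were called and 0 separated the genotypes, at 378 to 477 CPM in the controls and 404 to 585 CPM in Ksp-Cre/Prdm16fl/fl kidneys, and of 5 fibroblast markers 3 were higher without overlap (351 to 538 CPM and 562 to 863 CPM). Median log2 fold changes were -0.68 for 4 thick ascending limb, -1.0 for 4 distal convoluted tubule, -0.60 for 4 principal cell, -0.73 for 5 intercalated cell, -0.61 for 4 podocyte (1 called lower), -0.13 for 5 endothelial, 0.44 for 5 fibroblast, 0.24 for 5 macrophage, -0.26 for 3 lymphocyte and 1.35 for 3 neutrophil markers, with 2.26 for the 1 adipocyte marker tested. Their part in the transporter levels was not tested.

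Among the other members of these families, 1 gene was called. This was Slc16a14, an orphan member of the monocarboxylate transporter family, at 165 and 153 CPM in Prdm16fl/fl kidneys and at 74.0, 61.6 and 81.2 CPM in Ksp-Cre/Prdm16fl/fl kidneys. It fell by 1.14 on the log2 scale (SE 0.15, edgeR adjusted p = 0.0412). The call was lost without Prdm16fl/fl mouse 1 (-1.08, edgeR adjusted p = 0.261), without Prdm16fl/fl mouse 3 (-1.20, 0.496) and without Ksp-Cre/Prdm16fl/fl mice 1 (-1.16, 0.129) or 2 (-1.04, 0.136), and it held without mouse 3 (-1.23, edgeR adjusted p = 0.00077) and with DESeq2. It was also lost with library size scaling (edgeR adjusted p = 0.0617), with the gene length correction (0.0583) and with limma on log2(FPKM + 1) (0.0580). Of the 12 other Slc16 genes tested, 1 was called lower and 5 were lower without overlap, with a median log2 fold change of -0.15.

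Of the 9 other hexose and related carriers of the Slc2 family, 0 were called and the median was -0.14. Without overlap, 3 were lower and 3 higher, where 21.3% and 20.3% of all genes tested were. The fructose carrier Slc2a5 had the highest level, at 60.5 and 65.0 CPM in the controls and 52.7, 40.1 and 38.8 CPM in Ksp-Cre/Prdm16fl/fl kidneys (log2 fold change -0.52, SE 0.16, edgeR adjusted p = 0.175). The urate carrier Slc2a9 came next, at 31.9 and 25.1 CPM and at 25.9, 22.7 and 24.0 CPM, with overlapping genotypes.

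Of the 8 other Slc5 genes, 4 passed the filter, 0 were called and 3 were lower without overlap. The inositol transporter Slc5a3 overlapped, at 117 and 141 CPM in the controls and 139, 118 and 197 CPM in Ksp-Cre/Prdm16fl/fl kidneys. Slc5a11, a second inositol cotransporter, did not, at 48.4 and 55.9 CPM and at 32.0, 34.4 and 27.0 CPM (log2 fold change -0.74, SE 0.15, edgeR adjusted p = 0.0726). Of the 4 other Slc13 genes 0 were called and 3 were lower without overlap. The sulfate transporter Slc13a1 was near the level of Slc13a3 in CPM in the controls, at 628 and 657, and was at 479, 645 and 135 CPM in Ksp-Cre/Prdm16fl/fl kidneys, where mouse 2 overlapped the controls and mouse 3 was far below. The citrate transporter Slc13a2 was at 111 and 139 CPM and at 78.4, 102 and 39.2 CPM (log2 fold change -0.77, SE 0.37, edgeR adjusted p = 0.329).

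**Figure D5:**
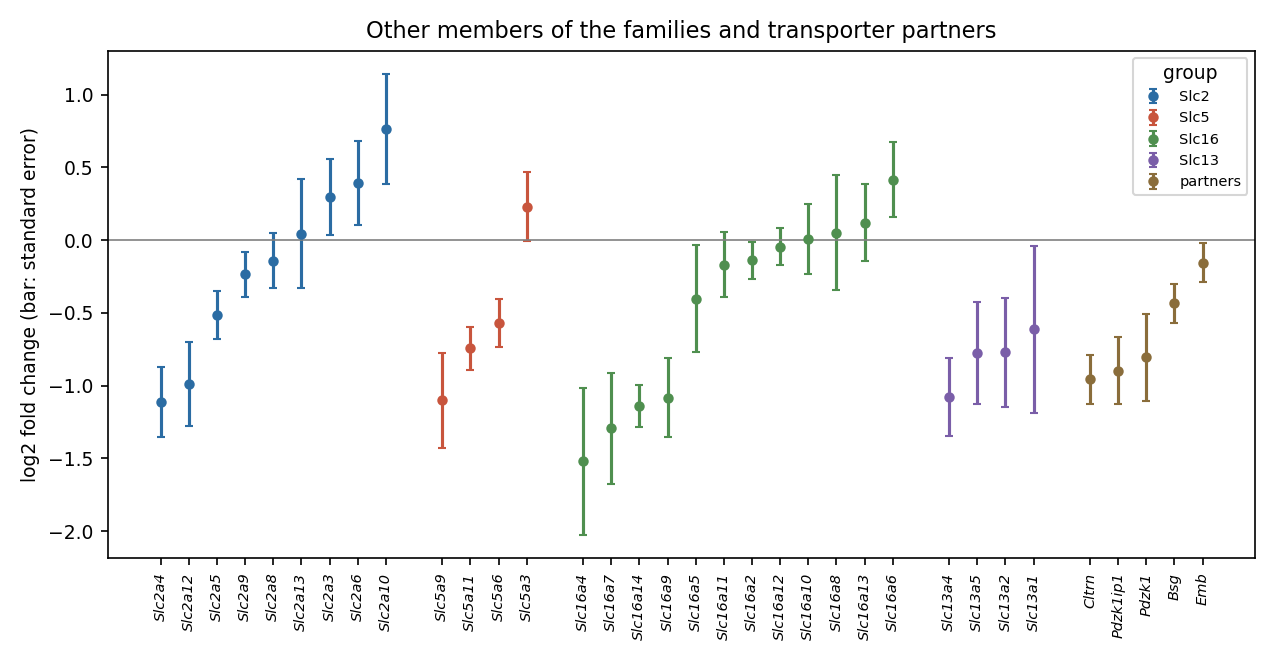
The log2 fold change and standard error (edgeR, Ksp-Cre/Prdm16fl/fl over Prdm16fl/fl) of the other tested Slc2, Slc5, Slc16 and Slc13 genes and of 5 transporter partners. All 4 Slc13 genes and all 5 partners lie below 0, the Slc2 and Slc16 genes lie on both sides, and Slc16a14 is the only gene shown that passed an adjusted p of 0.05.

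Several transporters need a partner protein at the membrane. Of 5 such partners 0 were called and 4 were lower without overlap, with a median log2 fold change of -0.81. Cltrn (collectrin), needed by amino acid transporters of the same membrane, was at 1170 and 1264 CPM in the controls and at 538, 623 and 719 CPM in Ksp-Cre/Prdm16fl/fl kidneys (log2 fold change -0.96, SE 0.17, edgeR adjusted p = 0.0598). Bsg (basigin), the chaperone of Slc16a1 and Slc16a3, was at 487 and 547 CPM and at 412, 369 and 367 CPM, lower without overlap (log2 fold change -0.44, SE 0.14, edgeR adjusted p = 0.171) while Slc16a1 was higher. Pdzk1ip1 (MAP17), the partner of Slc5a2, was named after its values were seen. It was at 533 and 548 CPM in the controls and at 360, 301 and 210 CPM in Ksp-Cre/Prdm16fl/fl kidneys (log2 fold change -0.90, SE 0.23, edgeR adjusted p = 0.121), with mouse 3 lowest as for Slc5a2.

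Of 8 genes for the handling of lactate and pyruvate, 1 was called. Fbp1, the fructose-bisphosphatase of gluconeogenesis, fell by 1.01 on the log2 scale (SE 0.12, edgeR adjusted p = 0.0412). It was at 680 and 716 CPM in the controls and at 337, 352 and 347 CPM in Ksp-Cre/Prdm16fl/fl kidneys, with very little spread in either genotype. The call was lost without Prdm16fl/fl mouse 1 (-1.05, edgeR adjusted p = 0.261), without Prdm16fl/fl mouse 3 (-0.98, 0.496) and without Ksp-Cre/Prdm16fl/fl mice 1 (-0.99, 0.129) or 2 (-1.03, 0.145), and it held without mouse 3 (-1.01, edgeR adjusted p = 0.00097). It was also lost with library size scaling (edgeR adjusted p = 0.0617), with the gene length correction (0.0588) and with the mouse number as a block (0.184). With limma on log2(FPKM + 0.1) it was lost as well (limma adjusted p = 0.0537). In this list 4 genes were lower without overlap, none was higher, and the median log2 fold change was -0.71.

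Of 8 regulators known to act on these transporters or their tubule, 0 were called, 3 were lower and 1 was higher without overlap. Txnip, which limits glucose uptake and is itself glucose-responsive, was at 515 and 607 CPM in the controls and at 753, 816 and 1176 CPM in Ksp-Cre/Prdm16fl/fl kidneys (log2 fold change 0.71, SE 0.24, edgeR adjusted p = 0.193). Hnf4a, a master regulator of proximal tubule genes, was at 654 and 664 CPM and at 401, 580 and 550 CPM (log2 fold change -0.37, SE 0.19, edgeR adjusted p = 0.356). Both separated the genotypes, in opposite directions.

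The genes most like Slc5a8 and Slc13a3 in pattern were sought as those with the smallest root mean square difference of centred log2 CPM over the 5 libraries, among 13994 genes. For Slc13a3 these were Csad (0.035), which makes hypotaurine, Upp2 (0.073), a uridine phosphorylase, and Sult1b1 (0.075), a sulfotransferase. Csad was at 184 and 192 CPM in the controls and at 89.2, 109 and 75.9 CPM in Ksp-Cre/Prdm16fl/fl kidneys, the same order of libraries as Slc13a3. For Slc5a8 they were Hibadh (0.088), an enzyme of valine breakdown, Tmem205 (0.11) and Gm15217 (0.11). Slc5a8 and Slc13a3 differed from each other by 0.18, which put Slc13a3 at rank 66 for Slc5a8, while Slc16a1 was at rank 13705 for Slc5a8. With 5 libraries this is a description of shape alone.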

How the data were processed

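RNA-seq of mouse kidney was analysed, with samples grouped by the genotype in their labels. Raw counts of reads per gene were deposited by the authors. The authors also deposited FPKM (counts per kilobase of merged exon and relative to the reads counted) and TPM (scaled by length to a common total). TPM was only checked against the counts. The submitters' processing notes name CASAVA, featureCounts 2.0.1, DESeq2 1.16.1 and the build hg38, a human build, while the files hold mouse genes. The aligner, the annotation and the use of strand are not given in the sources used here, so values of overlapping genes are uncertain. Positions are as the files give them, and 0 of the 10 starts equal those in GRCm38, so promoter sequences carry their own build. Mitochondrially encoded genes were not analysed here. Broken lines of 5 genes were rejoined.

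Genes were filtered with filterByExpr, scaled with TMM and tested with the edgeR 4.0.16 quasi-likelihood test (R 4.3.3) without covariates. Adjusted p-values are Benjamini-Hochberg over all 16394 genes tested, and a gene was called at an adjusted p under 0.05. CPM are per 1000000 TMM-scaled counts. P-values of edgeR, DESeq2 and limma set the difference between genotypes against the spread between mice, moderated across genes. Permutation p-values rank the split by genotype among the 10 possible splits of the mice. Differences of log2 FPKM had no pseudocount and were tested by exact permutation (scipy 1.17.1). From each related list the called genes are named or, where none was called, the 2 with the largest mean CPM. Likeness was computed on log2(CPM + 0.5) for genes whose mean log2 CPM was 1 or more, for the 2 transporters with the smallest p. The transporters and lists were chosen with earlier results of these data known. Alternatives were DESeq2 1.42.0, other scalings and filters, a gene length correction (loess, span 0.3), limma 3.58.1 on log2(FPKM + 1) or log2(FPKM + 0.1), a log2 fold change of at least 1 beside the adjusted p, the mouse number as a block, and leaving out each mouse. The count tests were tested on simulated data. Figures were drawn with matplotlib 3.10.9.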

Additional observations from a re-analysis of the deposited data

How the results depend on the processing

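With library size, upper quartile or RLE scaling, at least 10 counts in every library, the gene length correction, limma on FPKM or the added fold threshold, 0 transporters were called in either direction, as in the reported test. DESeq2 called 4 lower (5.45% of all genes) and edgeR without a filter on low counts 2 (1.59%). Leaving out each mouse gave 0 to 5 called lower (0 to 11.0% of all genes), 0 to 1 called higher (0 to 7.82%), 5 to 6 lower without overlap (25.0% to 30.4%) and 1 to 4 higher without overlap (23.9% to 33.3%). The highest counts of calls came without Ksp-Cre/Prdm16fl/fl mouse 3, and the cause was not tested. Scaling by library size moved the median of all genes from 0.038 to 0.15, and turned Slc5a1 to 0.024 and Slc16a3 to 0.097 on the log2 scale. Leaving out a mouse gave -0.28 to 0.064 for Slc5a1, -0.24 to 0.47 for Slc5a10 and -0.35 to 0.40 for Slc16a3. No other transporter changed sign under any alternative run. Slc5a2 ranged from -1.74 to -1.14, Slc5a8 from -1.28 to -0.90, Slc5a12 from -1.49 to -1.02, Slc13a3 from -1.21 to -0.88, Slc2a2 from -0.60 to -0.36 and Slc16a1 from 0.46 to 1.22.

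With the mouse number as a replicate block, 0 transporters and 0 of all genes were called (2061 at an unadjusted p under 0.05). Only 2 numbers are shared between the genotypes, and deviations of same-numbered mice from their group mean did not correlate (r = 0.0010 and -0.022). With 2 controls these deviations mirror each other, so the values cannot decide whether the number pairs mice. Where a Prdm16fl/fl mouse was left out, the remaining one was assumed to vary like the other genotype. Slc16a3 did not pass the FPKM filter of limma and has no value there. With 2 mice against 3, single-value tests cannot pass 0.05.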

Other observations

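The 7 hypoxia-responsive genes listed and tested, most of them glycolytic, did not move in one direction. Their median log2 fold change was -0.22, with 4 lower and 1 higher without overlap and 0 called. Hk2, the inducible hexokinase that traps glucose in the cell, was at 6.47 and 7.53 CPM in Prdm16fl/fl kidneys and at 18.3, 12.9 and 11.5 CPM in Ksp-Cre/Prdm16fl/fl kidneys (log2 fold change 1.03, SE 0.26, edgeR adjusted p = 0.119). Vegfa, the endothelial growth factor, was at 450 and 392 CPM and at 246, 246 and 197 CPM (log2 fold change -0.87, SE 0.16, edgeR adjusted p = 0.061). Both genes were singled out after their values were seen.

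G6pc and Pck1, which act in renal gluconeogenesis, were also chosen after their values were seen, for the position of Ksp-Cre/Prdm16fl/fl mouse 3. G6pc was at 195 and 224 CPM in Prdm16fl/fl kidneys and at 105, 82.2 and 331 CPM in Ksp-Cre/Prdm16fl/fl kidneys, so mouse 3 was the highest of the 5 libraries and mice 1 and 2 the lowest. Without mouse 3 its log2 fold change was -1.16 (edgeR adjusted p = 0.0015), and with it -0.28 (edgeR adjusted p = 0.833). Pck1 was at 5424 and 7357 CPM in the controls and at 2184, 2754 and 5556 CPM in Ksp-Cre/Prdm16fl/fl kidneys. In the same mouse, Slc5a2 and Slc5a12 were the lowest of the 5 libraries and Slc16a1 the highest.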
